A study of Mus musculus with 10 samples.

Results

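Purinergic signalling genes were examined in hematopoietic stem cells (HSCs) from mice with and without *Cited2*: 8 receptors for extracellular nucleotides and 2 enzymes that remove those nucleotides at the cell surface. The 10 genes were chosen by name with the CPM of the 10 libraries known, out of 26146 genes in the count table. Their differences between the genotypes are therefore given as a description, and nothing is supported by the count of members that pass a threshold. The libraries were made from sorted HSCs of 5 *Cited2* CTL and 5 *Cited2* CKO mice. The paper does not say whether each library came from a single mouse. It defines HSCs as LSK CD48-CD150+ cells, in some experiments also Flt3- and CD34-. Its sequencing methods do not name the gate. All animals were C57BL/6J and 8 to 12 weeks old. *Cited2* CTL mice, which GEO's labels call wildtype, carried the floxed *Cited2* alleles (*Cited2* fl/fl) and no Cre. *Cited2* CKO mice carried the same alleles together with *Vav-iCre*, which is active throughout the hematopoietic system from fetal life. Because only the *Cited2* CKO mice carried Cre, the presence of the recombinase and the loss of *Cited2* cannot be told apart.

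Cells release ATP, ADP, UTP and UDP-sugars when they are stressed, damaged or activated. The metabotropic P2Y receptors answer these ligands through G proteins, whereas the P2X receptors are cation channels that ATP opens directly. The ectonucleotidases CD39, encoded by *Entpd1*, and CD73, encoded by *Nt5e*, act in series: the former strips ATP and ADP to AMP and the latter turns AMP into adenosine, the ligand of a separate receptor family. In blood these genes are best known from platelets, where the ADP receptors P2Y1 and P2Y12 drive aggregation, and from macrophages, where P2X7 triggers inflammasome activation. The UDP-glucose receptor P2Y14 has long been used to describe primitive hematopoietic cells.

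The libraries held between 3058690 and 4548795 counts each. The paper gives many more sequenced reads per sample, so these totals are counted reads and not the sequencing depth. Values are given as CPM, the counts scaled to a common library total, with the SD of 5 libraries per genotype. *Cited2* stood at 163 ± 42.7 CPM in *Cited2* CTL HSCs. Of the *Cited2* CKO libraries, CKO 1 had 3.80 CPM, CKO 2 had 4.21 CPM, CKO 4 had 5.00 CPM and CKO 5 had 8.30 CPM, but the library labelled CKO 3 had 120.1 CPM, inside the *Cited2* CTL range of 101 to 222 CPM. The *Cited2* level of that library goes against its label. *Cited2* itself had a log2 fold change of -2.51 (SE, the standard error of the fit, 0.94) with that library and -4.92 (SE 0.27) without that library. Fold changes of named genes are given both ways. All 8 positive HSC markers examined (*Kit*, *Ly6a*, *Slamf1*, *Procr*, *Mecom*, *Hlf*, *Fgd5* and *Ctnnal1*) were present in every library. Of these, only *Kit*, *Ly6a* and *Slamf1* encode proteins of the LSK CD48-CD150+ gate. The 8 genes summed to 1466 to 1719 CPM in CTL and 1340 to 1549 CPM in CKO libraries. *Kit* averaged 580 ± 62.4 CPM in CTL and 500 ± 39.0 CPM in CKO libraries (edgeR adjusted p = 0.290). *Ly6a* went the other way, at 131 ± 7.70 and 161 ± 31.5 CPM (edgeR adjusted p = 0.321). With *Cd48* added, 3 of these 9 genes had an unadjusted p under 0.05 in edgeR, against 12.9% of all tested genes. *Cd48*, whose protein the paper's HSC gates exclude, was measured at 21.6 ± 5.53 CPM in *Cited2* CTL against 49.0 ± 9.15 CPM in CKO libraries. Its log2 fold change was 1.18 (SE 0.20, edgeR adjusted p = 0.026), or 1.26 without the library labelled CKO 3.

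Of the members with enough counts to be tested, *P2ry1* differed most between the genotypes. It encodes the Gq-coupled ADP receptor P2Y1, which raises cytosolic calcium through phospholipase C, and lies at chr3:61002795-61008982 on the plus strand of GRCm38. In the *Cited2* CTL libraries, from CTL 1 to CTL 5, it was expressed at 45.8, 39.7, 31.7, 52.2 and 35.4 CPM. In the *Cited2* CKO libraries, from CKO 1 to CKO 5, it was expressed at 82.7, 96.2, 85.8, 91.1 and 78.3 CPM. Every *Cited2* CKO library lay above every *Cited2* CTL library, and the library labelled CKO 3, in which *Cited2* was still measured, lay in the middle of its labelled group. The mean was 41.0 ± 8.15 CPM against 86.8 ± 7.02 CPM, a ratio of 2.12, and each library held at least 108 reads of the gene. The log2 fold change of the edgeR fit was 1.08, with an SE of 0.14, and it was 1.09 (SE 0.15) when the library labelled CKO 3 was left out. In bulk libraries, more cells that express a gene and more RNA of it per cell cannot be told apart.

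At an adjusted p under 0.05 and a fold change above 20%, 1 member was called, *P2ry1*, which was also the 1 member whose libraries did not overlap between the genotypes. Over the whole table, 0.226% of the 14165 tested genes were called, 0.12% were called as higher in *Cited2* CKO, and 3.33% had no overlap. As the members were chosen with these values known, this count is no test of *P2ry1*, and nothing is read from it. The gene shares 992 of its 4291 annotated exon bases with *Gm37035*, an antisense gene that has no entry in the count table. The use of strand in counting is not given in the sources used here, so reads of the gene and of its antisense partner cannot be told apart.

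**Figure D1:**
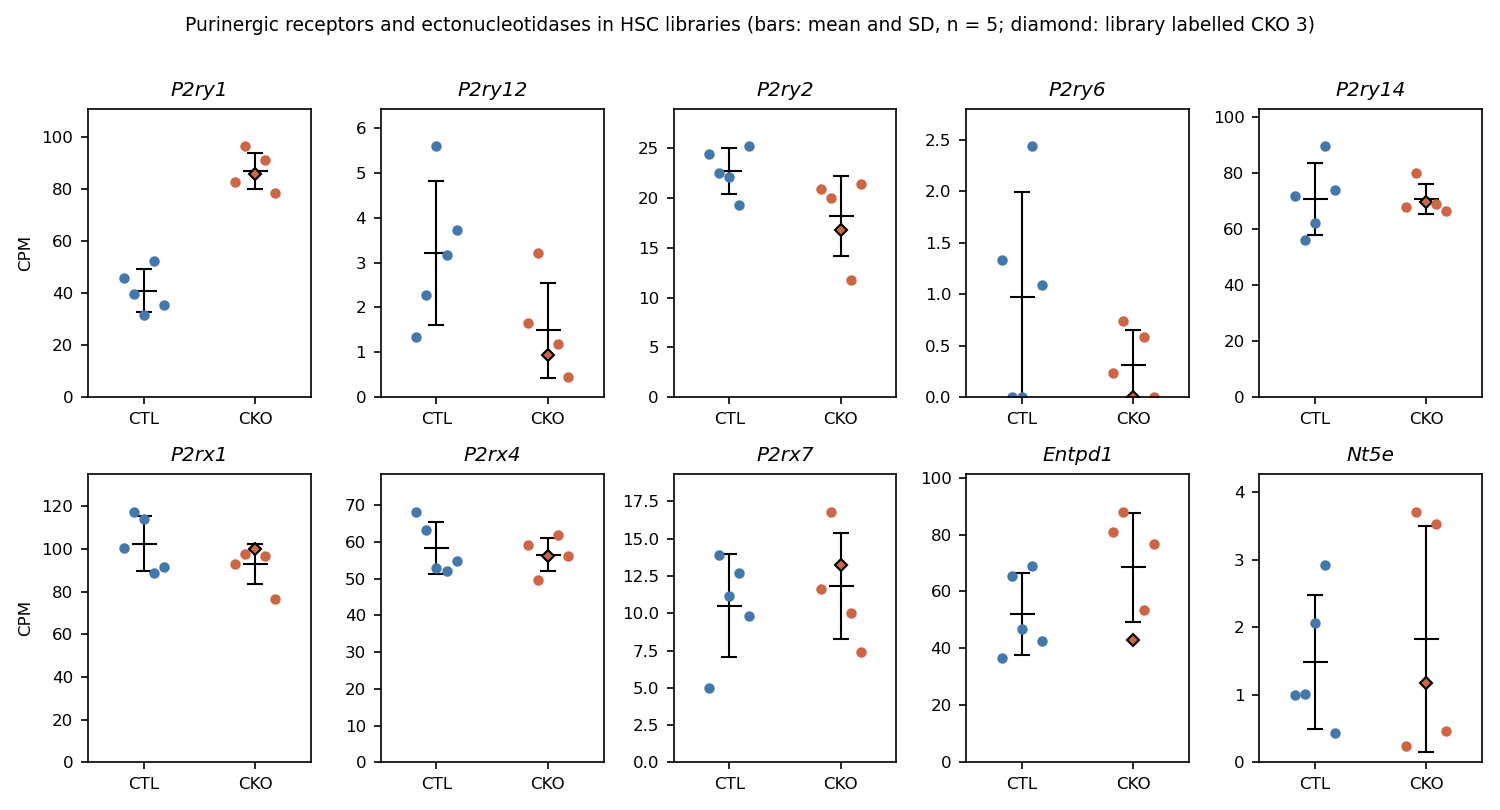
CPM of the 10 genes in each library (points), with the mean and SD of 5 libraries per genotype (bars) and the library labelled CKO 3 as a diamond. Each panel has its own linear axis from 0. *P2ry1* separates the genotypes, with *Cited2* CTL libraries up to 52.2 CPM and *Cited2* CKO libraries from 78.3 CPM, whereas the libraries of the other genes overlap.

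*P2ry12* encodes the other ADP receptor, P2Y12, which couples to Gi and is the target of the clopidogrel class of platelet drugs. It lies at chr3:59216272-59262871 on the minus strand, inside the body of *Med12l*. It shares 9 of its 2546 annotated exon bases with *Med12l*, which lies on the opposite strand. As strand use in counting is not given, some reads of *P2ry12* may come from *Med12l*. Its level was low in every library, with 1.34, 2.27, 5.59, 3.17 and 3.72 CPM in CTL 1 to CTL 5 and 1.66, 3.22, 0.945, 1.18 and 0.461 CPM in CKO 1 to CKO 5. CTL 3 was the highest and CKO 5 the lowest, but the ranges overlapped, and no library held more than 19 reads. In all, 62 reads came from *Cited2* CTL and 30 from *Cited2* CKO mice, and *P2ry12* did not pass the filter on low counts. Fitted without that filter, its log2 fold change was -1.11 with an SE of 0.75. Without the library labelled CKO 3 the gene passed the filter, with a log2 fold change of -0.98 (SE 0.70).

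The promoters of these receptors are shown as a description, because both bind ADP while their levels in HSCs lay far apart. The windows hold 250 bases before the transcription start in RefSeq (GRCm38.p6), written 5′ to 3′ on the strand of the gene, with each CpG in capitals. The *P2ry1* window lies at chr3:61002535-61002784 on the plus strand and the *P2ry12* window at chr3:59262986-59263235 on the minus strand.
P2ry1: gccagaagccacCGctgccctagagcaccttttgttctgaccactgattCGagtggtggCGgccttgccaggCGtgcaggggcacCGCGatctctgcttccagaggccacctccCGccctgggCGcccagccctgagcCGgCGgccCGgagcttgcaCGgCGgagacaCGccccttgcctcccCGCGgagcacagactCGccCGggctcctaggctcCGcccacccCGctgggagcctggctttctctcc
P2ry12: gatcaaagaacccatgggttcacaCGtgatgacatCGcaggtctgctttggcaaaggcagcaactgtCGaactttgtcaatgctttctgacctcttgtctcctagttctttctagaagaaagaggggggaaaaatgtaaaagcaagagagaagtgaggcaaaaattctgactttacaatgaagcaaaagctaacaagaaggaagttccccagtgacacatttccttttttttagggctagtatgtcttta
The *P2ry1* window had a GC content of 70.8% and 20 CpG, a number reached by 17.9% of the 32851 promoter windows, whose medians were 52.4% GC and 6 CpG. The *P2ry12* window had 41.6% GC and 3 CpG, as many as or fewer than 71% of the windows. Windows of other members did not all go the way of this pair, in which the higher gene had more CpG. *P2ry14* averaged 70.7 CPM in *Cited2* CTL libraries with 1 to 4 CpG per window, and *Nt5e* 1.49 CPM with 21 CpG. *P2rx7*, at 10.5 CPM with 4 and 6 CpG, went the way of the pair. A link between promoter composition and level was not tested. The *P2ry1* and *P2ry12* windows were searched on either strand for 7 short motifs, and none had a match in the *P2ry1* window. The RUNX motif, written TGTGGT, was present in 14% of all windows. The GATA motif was written AGATAA and was present in 9.99%. For ETS factors the letters were CAGGAAG, present in 10.8%. The hypoxia-inducible factor motif was written TACGTG and was present in 2.72%. E2F was searched with the letters TTCCCGC and with an alternative spelling, TTGGCGC, and either was present in 5.62%. The STAT motif, TTCNNNGAA, was present in 7.02%. The *P2ry12* window held the MYC E-box, CACGTG, which was present in 6.02%. A match describes the letters only, and a missing match says nothing about the factor.

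The receptors for uridine nucleotides and nucleotide sugars did not separate the genotypes. *P2ry2* (chr7:100996568-101012866, minus strand) encodes a receptor that ATP and UTP activate alike. It was expressed at 24.4, 22.5, 22.0, 19.3 and 25.2 CPM in CTL 1 to CTL 5 and at 20.9, 20.04, 16.8, 11.8 and 21.4 CPM in CKO 1 to CKO 5. CKO 3 and CKO 4 lay below every *Cited2* CTL library and the other *Cited2* CKO libraries among them, with a log2 fold change of -0.31 (SE 0.20), or -0.29 without CKO 3. *P2ry6* (chr7:100937630-100974649, minus strand), the UDP receptor, was at the floor of these libraries, where 19 reads were counted in CTL libraries and 6 in CKO libraries. It had 0 reads in CTL 2, CTL 3, CKO 3 and CKO 5, where a count of 0 allows levels of up to 0.758, 0.882, 0.709 and 0.691 CPM. No difference in *P2ry6* was detectable at these count totals.

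*P2ry14* (chr3:59113855-59153618, minus strand, also inside *Med12l*) encodes the Gi-coupled receptor for UDP-glucose. It was expressed at 71.9, 56.1, 62.0, 89.4 and 74.0 CPM in CTL 1 to CTL 5 and at 68.0, 80.2, 69.7, 68.8 and 66.6 CPM in CKO 1 to CKO 5. The genotypes had the same mean, 70.7 ± 12.8 and 70.6 ± 5.44 CPM, and every *Cited2* CKO library fell within the *Cited2* CTL range. Although *P2ry14* and *P2ry1* lie within 2 Mb of each other, their differences were unlike, with a log2 fold change of -0.0018 (SE 0.13) for *P2ry14*, or 0.0022 without CKO 3.

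The libraries of the genotypes also overlapped for the ATP-gated channels. *P2rx1* (chr11:72999103-73015200, plus strand), a fast-desensitising channel of platelets and neutrophils, was expressed at 100.3, 117, 114, 88.5 and 91.7 CPM in CTL 1 to CTL 5. In CKO 1 to CKO 5 it was expressed at 92.9, 97.7, 99.7, 96.7 and 76.7 CPM. CKO 5 was below all *Cited2* CTL libraries and the others overlapped them (log2 fold change -0.14, SE 0.11, or -0.17 without CKO 3). *P2rx4* (chr5:122707544-122729738, plus strand), a channel found largely on lysosomes, was expressed at 68.2, 63.1, 52.9, 52.2 and 54.7 CPM in CTL 1 to CTL 5 and at 59.2, 49.5, 56.0, 61.7 and 56.2 CPM in CKO 1 to CKO 5. Only CKO 2 lay outside the *Cited2* CTL range of *P2rx4* (log2 fold change -0.04, SE 0.12, the same to 2 decimals without CKO 3). *P2rx7* (chr5:122643911-122691432, plus strand), the low-affinity channel of macrophages and T cells, was expressed at 5.02, 13.9, 11.2, 12.7 and 9.85 CPM in CTL 1 to CTL 5 and at 11.6, 16.8, 13.2, 9.995 and 7.37 CPM in CKO 1 to CKO 5. CTL 1 was the lowest library and CKO 2 the highest, and the others intermingled. *P2rx7* was the most variable of the tested members, with a biological coefficient of variation of 35.2% against a median of 18.9% over all tested genes, and its log2 fold change was 0.16 (SE 0.33), or 0.11 without CKO 3. The gene shares 119 exon bases with the microRNA gene *Mir8115*.

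Of the surface enzymes, *Entpd1* (chr19:40612366-40741602, plus strand) was well expressed and *Nt5e* (chr9:88327197-88372092, plus strand) barely so. *Entpd1* was expressed at 36.8, 65.4, 46.7, 69.0 and 42.7 CPM in CTL 1 to CTL 5 and at 80.8, 88.1, 43.0, 53.5 and 76.7 CPM in CKO 1 to CKO 5. CKO 1, CKO 2 and CKO 5 exceeded every *Cited2* CTL library, while CKO 3 and CKO 4 fell among them. The means were 52.1 ± 14.3 and 68.4 ± 19.2 CPM. The log2 fold change was 0.39 (SE 0.22), and without the library labelled CKO 3 it was 0.52 (SE 0.20). *Nt5e* had 28 reads in all in *Cited2* CTL mice, between 0.438 and 2.92 CPM per library, and 35 reads in *Cited2* CKO mice, between 0.238 and 3.71 CPM. It did not pass the filter on low counts, so the AMP-hydrolysing step of the pair was measured at the edge of detection in both genotypes.

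In all, 7 of the 10 members passed the filter and 3, *P2ry6*, *P2ry12* and *Nt5e*, did not. Of the 7, 3 had a log2 fold change above 0 and 4 below, with a median of -0.0018 against 0.0065 over all tested genes. Apart from *P2ry1*, their log2 fold changes ran from -0.31 for *P2ry2* to 0.39 for *Entpd1*. Over 18 other settings of the fit, among them leaving out each library in turn, the log2 fold change of *P2ry1* ran from 1.00 to 1.18. These settings use the libraries on which the gene was chosen and add no independent evidence.

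**Figure D2:**
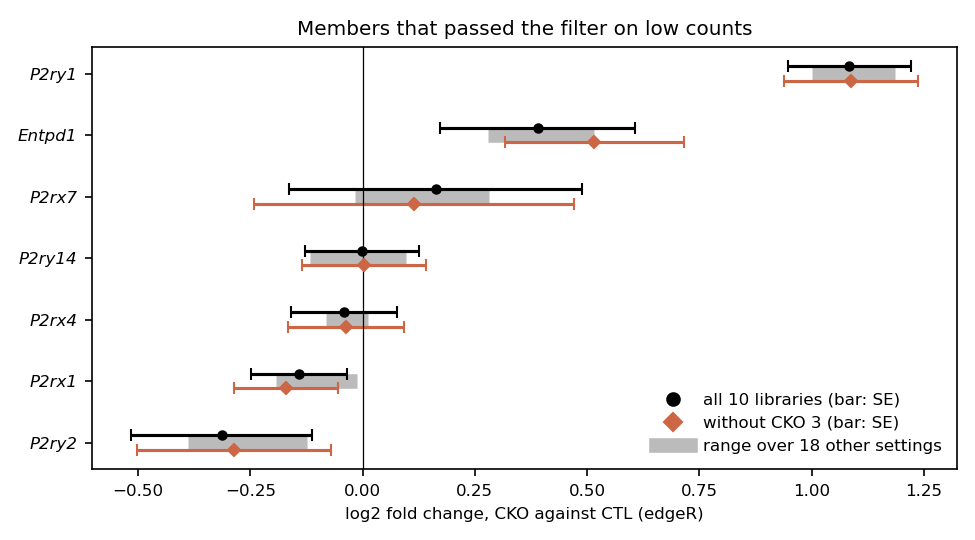
Log2 fold change, *Cited2* CKO against *Cited2* CTL, of the 7 members that passed the filter, with all 10 libraries (black points) and without the library labelled CKO 3 (diamonds). Bars are standard errors of the edgeR fit and grey bands the range over 18 other settings. *P2ry1* lies between 1.00 and 1.18 in all settings, and the other 6 lie between -0.39 and 0.52.

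Levels of different genes were compared in TPM, which divides by the deposited gene length. In *Cited2* CTL HSCs the order was *P2rx1* (99.8 TPM), *P2ry14* (93.7), *P2rx4* (69.4), *Entpd1* (29.6), *P2ry1* (25.1), *P2ry2* (17.99), *P2rx7* (4.66), *P2ry12* (3.29), *P2ry6* (1.21) and *Nt5e* (0.992). The ranges over libraries of neighbours in this order overlapped except between *P2rx4* and *Entpd1* and between *P2ry2* and *P2rx7*. The genes therefore formed a high group of *P2rx1*, *P2ry14* and *P2rx4*, a middle group of *Entpd1*, *P2ry1* and *P2ry2*, and a low group of the remaining 4. *P2rx1* exceeded 76.8% of all tested genes in mean *Cited2* CTL TPM, *P2ry1* exceeded 40.7% and *P2rx7* exceeded 14.8%. In *Cited2* CKO HSCs *P2ry1* stood at 53.1 TPM and moved ahead of *Entpd1* at 38.8 TPM.

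The order rests on the gene lengths. The deposited length of *P2ry14* is 1798 bases, while its annotated exons cover 11059 bases, and for *P2rx4* the lengths are 1995 and 7025 bases. With the exon bases of the GENCODE annotation in place of the deposited lengths, 4 of the 10 places differed, and *P2ry1* took place 2 and *P2ry14* place 5. Leaving out CTL 2 exchanged *P2rx1* and *P2ry14*.

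**Figure D3:**
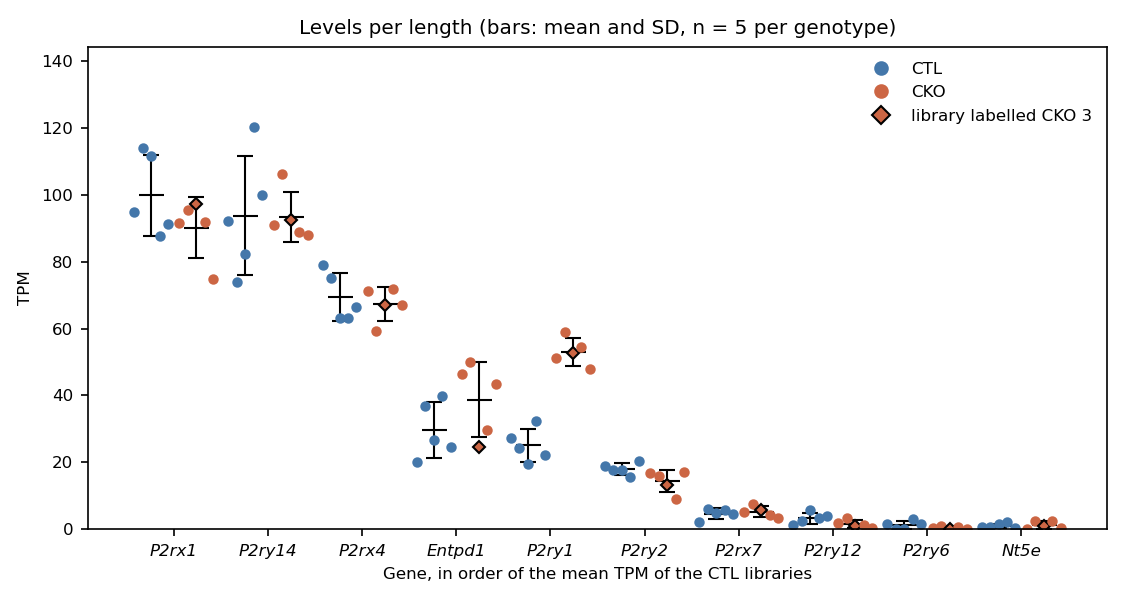
TPM of the 10 genes per library (points) with mean and SD of 5 libraries per genotype (bars), ordered by the mean of the *Cited2* CTL libraries on a linear axis, with the library labelled CKO 3 as a diamond. *P2rx1*, *P2ry14* and *P2rx4* form the high group from 69.4 TPM upward, and *P2ry1* moves from 25.1 TPM in *Cited2* CTL to 53.1 TPM in *Cited2* CKO.

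*P2ry1* made up a larger share of the transcripts of the 5 P2Y members in every *Cited2* CKO library than in any *Cited2* CTL library. Other P2Y genes, such as *P2ry10* at 17.9 TPM in *Cited2* CTL, were left out. The 5 P2Y members summed to 141 ± 22.0 TPM in *Cited2* CTL libraries (118 to 175) against 163 ± 13.2 TPM in the *Cited2* CKO libraries (153 to 186), with overlapping ranges. *P2ry1* supplied 17.8% ± 2.38 of that sum in CTL and 32.6% ± 1.62 in CKO libraries, and the ranges of 15.002% to 20.5% and 31.2% to 35.3% lay apart. The ratio of *P2ry14* to *P2ry1* in TPM was 3.78 ± 0.593 against 1.76 ± 0.0780. Both the shares and this ratio rest on the deposited lengths. With those lengths *P2ry14* was above *P2ry1* in both genotypes, but with the annotated exon bases it was below *P2ry1* in *Cited2* CTL HSCs already. The 3 P2X members summed to 174 ± 15.3 and 163 ± 10.3 TPM, and *P2rx1* made up 57.3% ± 3.08 and 55.4% ± 2.82 of the sum. These shares were computed from the values that chose the genes and were not tested.

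The rest of the purinergic system was described by 70 further genes, grouped by role. Of these, 55 passed the filter and none was called by edgeR, by DESeq2 or by limma-voom, nor under any other setting. With an unadjusted p under 0.05, edgeR counted 6 of the 55 (10.9%), DESeq2 7 and limma-voom 6, against 12.9% of all genes tested with edgeR. The list had 27 log2 fold changes above 0 and 28 below, with a median of -0.04. None of the 55 had libraries that did not overlap between the genotypes. Over all tested genes, 0.226% were called by edgeR and 3.33% had no overlap. A list of this size can lack both, so nothing is read from their absence. Its smallest adjusted p in the edgeR fit was 0.243, and this ranged from 0.104 to 0.491 over the settings.

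Receptors came first. Of 4 other P2Y genes, 3 were tested, and the most abundant per length was *P2ry10*, a receptor for lysophosphatidylserine, at 17.9 TPM in *Cited2* CTL. Of the 6 P2Y-related orphan and lysophospholipid receptors, 4 were tested. Among them *Gpr171*, a neighbour of *P2ry14*, reached 208 TPM, more than any of the 10 members, and showed a log2 fold change of 0.18 (SE 0.08, adjusted p = 0.365 in edgeR), or 0.23 without CKO 3. *P2rx6* was the only 1 of 4 other P2X genes to be tested and had 5.51 TPM. The adenosine receptors were represented by *Adora2a*, a Gs-coupled receptor, at 46.5 TPM with a log2 fold change of -0.12 (SE 0.17), or -0.03 without CKO 3, and 3 of these 4 genes were tested.

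Enzymes and transporters supply and clear the ligands. Of 15 other ectonucleotidases, 11 were tested, led by *Entpd5*, an intracellular UDPase, at 81.4 TPM. *Cd38*, which cleaves NAD outside the cell, averaged 39.7 ± 7.28 CPM in CTL and 27.4 ± 10.6 CPM in CKO libraries (log2 fold change -0.53, SE 0.23, adjusted p = 0.360 in edgeR), and -0.79 without the library labelled CKO 3. Of the 7 genes for ATP release, 5 were tested, with the channel gene *Panx1* at 76.4 TPM. Adenosine kinase, *Adk*, was the most abundant of 10 tested genes for nucleoside handling, at 157 TPM. In that group *Dpp4*, which anchors adenosine deaminase in humans, was at 0.26 on the log2 fold change scale (SE 0.10, adjusted p = 0.313 in edgeR), or 0.29 without CKO 3. The nucleoside transporter *Slc29a1*, named after its value was seen, had -0.32 (SE 0.14, adjusted p = 0.365 in edgeR), or -0.39 without CKO 3.

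Genes around UDP-glucose and uridine, and genes for coupling of the receptors, completed the list. All 5 genes around UDP-glucose and uridine were tested, with *Pgm2*, a phosphoglucomutase, at 101 TPM. *Upp1*, uridine phosphorylase, had the smallest p of the 55 genes, at 42.4 ± 6.05 against 31.1 ± 4.15 CPM (log2 fold change -0.44, SE 0.15, adjusted p = 0.243 in edgeR), and -0.49 without CKO 3. All 13 genes for G proteins and phospholipase C passed the filter. *Gnai3*, a Gi subunit, was the most abundant at 247 TPM, with a log2 fold change of 0.15 (SE 0.07, adjusted p = 0.393 in edgeR), or 0.16 without CKO 3. *Gna11*, a subunit of the Gq class through which P2Y1 signals, had -0.43 (SE 0.19, adjusted p = 0.360 in edgeR), or -0.35 without CKO 3.

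**Figure D4:**
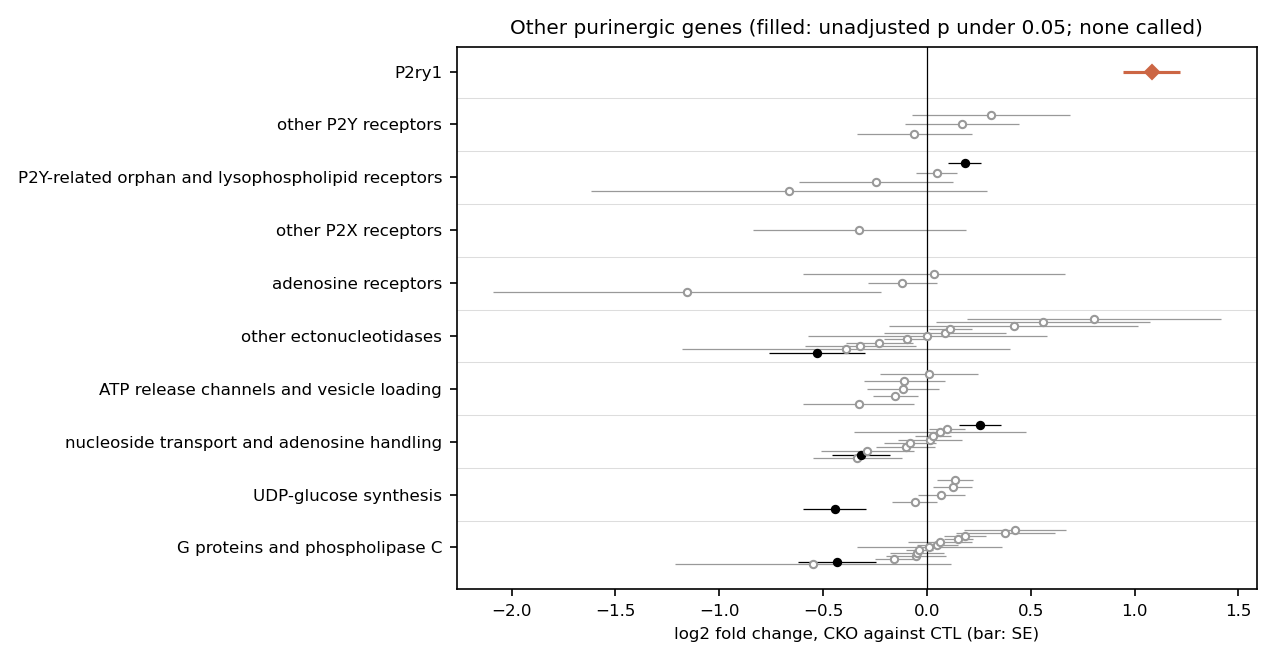
Log2 fold change with standard error for the 55 tested purinergic genes outside the 10 members, in rows by role, with *P2ry1* on top as a diamond. Filled points have an unadjusted p under 0.05, 6 genes in all, and none was called by edgeR after adjustment. The points run from -1.15 to 0.80.

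The genes around *P2ry1* were looked at after its value was seen. Of 20 other genes within 2 Mb, 12 were tested, and none was called by edgeR, DESeq2 or limma-voom. As edgeR called only 0.226% of all tested genes, nothing is read from this. With each tool 1 of them, *Gpr171* in edgeR, had an unadjusted p under 0.05, against 12.9% of all genes tested with edgeR. Their log2 fold changes ran from -0.58 to 0.54, with a smallest adjusted p of 0.365. The nearest tested genes were *Mbnl1*, 373 kb upstream, which encodes a splicing regulator and had a log2 fold change of 0.09 (SE 0.09), and *Rap2b*, 352.7 kb downstream, a small GTPase with 0.25 (SE 0.14). The P2Y cluster at the edge of this window had 0.31 (SE 0.38) for *P2ry13*, another ADP receptor, and -0.12 (SE 0.13) for *Med12l*. Without CKO 3 the log2 fold changes were 0.09 for *Mbnl1*, 0.28 for *Rap2b*, 0.46 for *P2ry13* and -0.09 for *Med12l*.

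**Figure D5:**
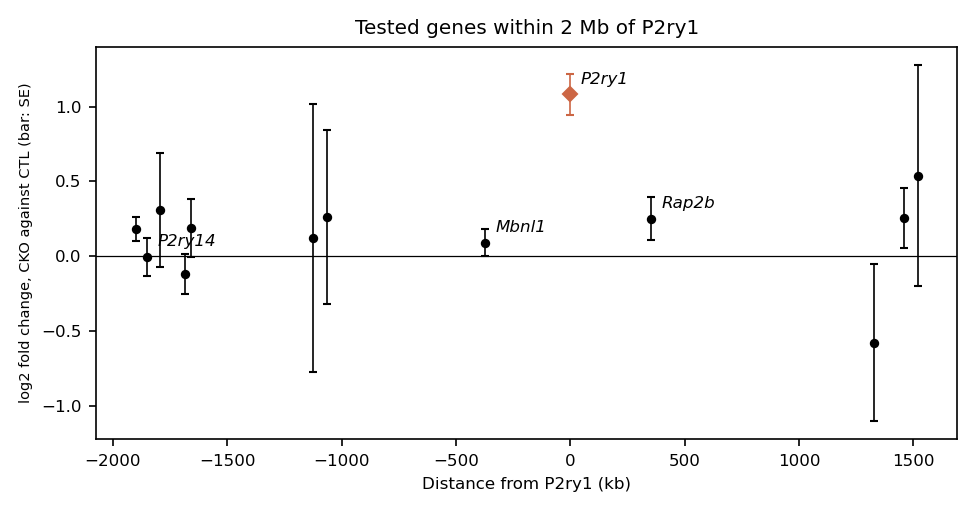
Log2 fold change, *Cited2* CKO against *Cited2* CTL, of tested genes by distance from *P2ry1* in kb (negative is upstream), with standard errors of the edgeR fit. *P2ry1* (diamond) stands at 1.08, and the 12 other genes lie between -0.58 and 0.54.

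The genes whose log2 CPM was most like that of a member over the 10 libraries were listed by Pearson correlation among 14164 other genes. For *P2ry1* these were *Sva*, *Pls1* and *Eml4*, with r of 0.97, 0.95 and 0.94. As *P2ry1* separates the genotypes, genes that also do so rank high in this list by construction. Likeness within a genotype was not computed. *Pls1*, an actin-bundling plastin, averaged 12.3 ± 2.49 CPM in CTL and 34.4 ± 8.75 CPM in CKO libraries and was called as higher, with a log2 fold change of 1.48, or 1.54 without CKO 3. *Sva*, a seminal vesicle antigen, was called as higher too, at 0.787 ± 1.14 against 30.9 ± 17.3 CPM (5.24, or 5.44 without CKO 3). Its CTL mean lay at the floor of the CTL libraries, 0.656 to 1.00 CPM, so the size of its fold change is uncertain. *Eml4*, a microtubule-binding protein, was not called, at 132 ± 5.53 against 158 ± 5.30 CPM (0.26 in both fits, adjusted p = 0.117 in edgeR). For *P2rx1* they were *Hdhd5*, *Slx4* and *Slc23a1* (r of 0.96, 0.90 and 0.89), and for *P2ry14* they were *Lhfpl2*, *Usp4* and *Ccdc88a* (0.86, 0.86 and 0.85). All values of r come from the same libraries and share their depth and normalization.

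Markers of other cell types were examined beside *P2ry1*. The 3 multipotent progenitor genes reported here, *Cd48*, *Flt3* and *Cd34*, summed to 493 to 591 CPM in CTL and 501 to 549 CPM in CKO libraries, and 1 of them, *Cd48*, was called as higher in *Cited2* CKO. *Flt3*, a cytokine receptor of lymphoid-primed progenitors, averaged 123 ± 18.5 CPM in CTL and 96.0 ± 8.05 CPM in CKO libraries and was not called (log2 fold change -0.36, adjusted p = 0.194 in edgeR, and -0.34 without CKO 3). The 5 mast cell and basophil genes summed to 33.8 to 56.7 CPM and 60.0 to 118 CPM, with no overlap, most of it *Cpa3*. *Cpa3*, a mast cell carboxypeptidase, had a log2 fold change of 0.98 and was called by DESeq2 but not by edgeR (adjusted p = 0.099, and 1.11 with adjusted p = 0.052 without CKO 3), while *Mcpt8*, *Prss34*, *Cma1* and *Ms4a2* were at 0 in some libraries. The part of either cell type in the difference of *P2ry1* was not tested.

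The platelet lineage is a known site of *P2ry1*. The 9 megakaryocyte and platelet genes reported here summed to 571 to 696 CPM in CTL and 572 to 711 CPM in CKO libraries. Of these, 8 were tested, and none was called or had an unadjusted p under 0.05 with edgeR, DESeq2 or limma-voom. Over all genes tested with edgeR these shares were 0.226% and 12.9%, so nothing is read from their absence in 8 genes. *Pf4*, a platelet chemokine, had a log2 fold change of 0.12 (SE 0.12) and *Itga2b*, integrin alpha IIb, of 0.02 (SE 0.10), or 0.20 and 0.05 without CKO 3, while *Gp6* was at 0 in some libraries. The summed levels of the other lists overlapped, with 287 to 323 and 283 to 370 CPM for monocytes, 49.8 to 580 and 56.7 to 335 CPM for neutrophils, and 5.02 to 9.85 and 4.41 to 14.7 CPM for T cells. B cell genes summed to 50.3 to 91.2 and 55.7 to 71.6 CPM, erythroid genes to 40.0 to 98.0 and 40.4 to 59.9 CPM, and endothelial and stromal genes to 12.7 to 43.8 and 22.1 to 48.7 CPM. No gene of these 6 lists was called by edgeR, DESeq2 or limma-voom, where edgeR called 0.226% of all tested genes. An unadjusted p under 0.05 was found for 12.9% of all tested genes. With an unadjusted p under 0.05 in edgeR there were 3 of their genes, all with higher means in *Cited2* CKO and named after their values were seen. *Itgam*, the integrin CD11b, averaged 17.8 ± 6.77 CPM in CTL and 34.6 ± 15.9 CPM in CKO libraries (log2 fold change 0.95, SE 0.31, adjusted p = 0.230 in edgeR, and 0.97 without CKO 3). *Cd68*, a lysosomal protein of macrophages, averaged 17.7 ± 4.44 and 26.8 ± 6.06 CPM (0.59, SE 0.22, adjusted p = 0.294 in edgeR, and 0.70 without CKO 3). *Kdr*, an endothelial growth factor receptor, averaged 8.47 ± 5.87 and 18.4 ± 6.01 CPM (1.12, SE 0.46, adjusted p = 0.330 in edgeR, and 1.02 without CKO 3). The libraries of each of the 3 overlapped between the genotypes. The summed monocyte level was mostly *Lyz2*, lysozyme, at 228 ± 20.5 and 226 ± 16.8 CPM. The part of these cell types in the difference of *P2ry1* was not tested.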

How the data were processed

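RNA was sequenced by the authors from HSCs of 5 *Cited2* CTL and 5 *Cited2* CKO mice. Single-ended reads were aligned to GRCm38 with HISAT2 and counted per gene with Rsubread, and the authors deposited raw counts per gene symbol, not normalized, with each gene's length. Annotation, strand use and treatment of reads matching several genes are not given in the sources used here. Groups came from GEO's labels and no batch is named there.

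The genotypes were compared with edgeR 4.0.16 (R 4.3.3): filterByExpr kept 14165 of 26146 genes, followed by TMM and the robust quasi-likelihood F test with Benjamini-Hochberg adjustment over all tested genes. Genes with an adjusted p under 0.05 and a fold change above 20% were called. CPM used TMM-normalized totals, TPM the deposited lengths, and log2 CPM a prior count of 2. The common biological coefficient of variation was 25.3%. A floor is 3 counts per library and covers counting error only. The SD and the standard errors of the edgeR fit include the variation between libraries. Positions are from GENCODE (GRCm38) and promoters from RefSeq (GRCm38.p6), which held 15 windows for 9 of the 10 members and none for *P2ry6*.

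The members and all gene lists were chosen with earlier results of these data known. Some genes of the marker lists are not reported here and were left out of the sums and counts of those lists. The named genes were the 10 members, *Cited2*, the most abundant gene of each role, the 3 purinergic genes with the smallest p in each direction, the 3 genes most like *P2rx1*, *P2ry14* and *P2ry1*, and the cell type markers. *Slc29a1*, *Kit*, *Ly6a*, *Itgam*, *Cd68* and *Kdr* were singled out, and the genes around *P2ry1* examined, after their values or that of *P2ry1* were seen. Alternatives were DESeq2 1.42.0, limma-voom (limma 3.58.1), other size factors and filters, a replicate block, an offset for GC content and length, and each library left out in turn. Scripts were tested on simulated data. Libraries of the same genotype differed by more than sampling noise (chi-square per degree of freedom from 4.71 to 12.4), so none was repeat sequencing of another. Libraries of different genotypes were not compared in this way. The comparison cannot tell separate preparations of the same RNA from separate mice.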

Additional observations from a re-analysis of the deposited data

Results flagged for a closer look

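In 24 genes and both genotypes, 48 groups of 5 libraries were examined for a single library far from the other 4, and 3 had one, where chance gives about 1 in 20. *P2ry14* stood at 80.2 CPM in CKO 2, above 66.6 to 69.7 CPM in the other *Cited2* CKO libraries. *Cited2* stood at 120.1 CPM in the library labelled CKO 3, against 3.80 to 8.30 CPM in the others. *Adora2a*, an adenosine receptor gene, stood at 65.2 CPM in CTL 1, against 42.9 to 48.5 CPM in the other *Cited2* CTL libraries.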

How the results depend on the processing

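The log2 fold change of *P2ry1* was 1.00 to 1.18 over 18 other settings of the fit, all on the libraries known when the members were chosen. Of the other tested members, *P2ry14* had the opposite sign in 11 settings (-0.12 to 0.10), and *P2rx4* (-0.08 to 0.01) and *P2rx7* (-0.02 to 0.28) in 2 each. Over all genes, 17 were called higher and 15 lower in *Cited2* CKO by edgeR, but 138 and 158 by DESeq2, 6 and 3 with the offset for GC content and length, 9 and 3 with that offset and the replicate block, and 5 and 3 at an adjusted p under 0.01. With the replicate block alone the counts were 15 and 9 and the log2 fold change of *P2ry1* was 1.10. The numbers did not pair the libraries (correlations of same-numbered deviations from -0.095 to 0.208, and only CKO 3 and CKO 5 were most like their own number among the *Cited2* CKO libraries). Leaving out a single library gave 5 to 27 genes called higher and 3 to 18 lower, with moves of over 1.5 times without CTL 1, CTL 2, CTL 3, CTL 4, CKO 1, CKO 2 or CKO 5 (down) and without CKO 3 (27 higher). The cause was not tested. The order of levels differed in 2 places without CTL 2 and in 4 places with GENCODE exon bases, an alternative chosen after seeing the data. The purinergic genes outside the members had 0 calls in either direction by edgeR in every setting run, by DESeq2 and by limma-voom. Over all tested genes the main edgeR fit called 0.226%. At these count totals, *P2ry6*, *P2ry12* and *Nt5e* were too thinly counted for a difference to be resolved.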

Other observations

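Over the 10 libraries, the 21 pairs among the 7 tested members had Pearson correlations of log2 CPM from -0.63 to 0.50, with a median of -0.07, a description of libraries that share depth and normalization.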
